A study of Mus musculus with 2 samples.

Results

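Cells that carried Acp5 transcripts but none of 3 other osteoclast (OC) transcripts were examined in single-cell RNA-seq of murine bone marrow-derived monocytes (BMDMs) induced toward OCs. Acp5 encodes tartrate-resistant acid phosphatase, the enzyme behind the TRAP stain. Barcodes with at least 500 detected genes, at most 10% mitochondrial UMIs and at least 10000 UMIs were kept. A UMI is a unique molecular identifier, which marks 1 captured mRNA molecule. Kept cells with at least 3 Acp5 UMIs and 0 UMIs of each of Ctsk, Mmp9 and Dcstamp were taken, and are called Acp5-only cells here for that rule. They numbered 722 of 10772 kept cells, out of 12320 barcodes in all. The counts of these 4 genes chose the cells, so they describe the choice and support nothing else.

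Both cultures received M-CSF at 50 ng/ml and RANKL at 100 ng/ml, and both held myeloid cells of mouse bone marrow. The control library came from an animal or animals labelled only as control. The mutant library came from LysM-Cre;Arid1afl/fl marrow, in which Cre recombinase under control of the Lyz2 locus deletes the floxed Arid1a segment in myeloid cells. Arid1a encodes a subunit of BAF, a complex that remodels chromatin. There was 1 library per genotype, the number of animals behind each was not given in the sources used here, and cells of a library are not replicates. For this reason no test was run and no p-value is given. A difference between the libraries describes these libraries, and genotype and library cannot be told apart.

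RANKL acts on myeloid precursors through its receptor RANK, which leads to the transcription factor NFATc1. NFATc1, together with factors such as PU.1, MITF and AP-1 proteins, turns on the genes for fusion and for resorption of bone. Ctsk encodes cathepsin K, the protease that degrades bone collagen. Mmp9 encodes a gelatinase, and Dcstamp a membrane protein needed for fusion of precursors. Acp5 is the usual enzyme marker of OCs, but it is also expressed by some macrophages that do not become OCs.

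The control library kept 5896 cells with 161577332 UMIs and a median of 24653 UMIs per cell, and the mutant library kept 4876 cells with 127268089 UMIs and a median of 23380. Acp5 was expressed at 106 counts per 1e6 UMIs (CPM) over the kept control cells and at 68.9 CPM over the kept mutant cells. Ctsk stood at 57.4 and 20.8 CPM, Mmp9 at 58.4 and 5.75 CPM, and Dcstamp at 11.9 and 2.29 CPM, in that order of libraries. A total of 8 barcode sequences occurred in both libraries. No doublet was removed, but 6.31% of the control and 10.5% of the mutant Acp5-only cells had doublet scores in the range that was removed in an alternative. The shares were 3.25% and 2.71% of cells with 0 UMIs of all 4 genes, and 5.16% and 4.69% of all barcodes.

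Acp5 lies on the minus strand of chr9:22038023-22049355 and Ctsk on the plus strand of chr3:95406178-95416732 (GRCm39). Mmp9 spans chr2:164780439-164797771 and Dcstamp chr15:39609214-39624334, both on the plus strand of the same build. The 250 bases before an annotated start of the first pair are shown because the rule sets these genes apart, and because MITF is known to bind an E-box in the Acp5 promoter. They are RefSeq sequences of GRCm38.p6, whose coordinates cannot be compared with those above. Capitals mark the E-box CACATG, searched on both strands and held by 12.3% of 32851 promoter windows. These windows ran from 250 bases before to 50 bases after a start.
Acp5, minus strand of chr9:22130599-22130848: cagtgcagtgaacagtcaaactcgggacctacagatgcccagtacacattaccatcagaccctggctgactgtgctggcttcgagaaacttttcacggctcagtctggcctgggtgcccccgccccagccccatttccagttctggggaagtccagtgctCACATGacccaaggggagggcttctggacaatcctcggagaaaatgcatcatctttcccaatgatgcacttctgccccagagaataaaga
Ctsk, plus strand of chr3:95498960-95499209: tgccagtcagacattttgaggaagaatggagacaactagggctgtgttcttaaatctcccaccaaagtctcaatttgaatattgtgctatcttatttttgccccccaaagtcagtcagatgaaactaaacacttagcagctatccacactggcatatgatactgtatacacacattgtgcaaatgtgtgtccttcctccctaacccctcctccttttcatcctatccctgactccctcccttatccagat
The Acp5 stretch held 1 match and the Ctsk stretch held none in these letters. The other annotated starts of Acp5 in the same tables held none either in the 250 bases before them. Other motifs were counted as well, and their matches are not marked above. GAGGAA, held by 23.3% of windows, had 0 matches in the Acp5 and 2 in the Ctsk stretch shown. GGAAA, held by 55.6%, had 2 and 0, and TGANTCA, held by 6.75%, had 0 in both. A match is a description of the letters and not a measured site.

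The Acp5-only cells were rare in the control library and common in the mutant library. They made up 111 of 5896 control cells, or 1.88% (95% exact Clopper-Pearson interval 1.55 to 2.26%). Of the mutant cells they made up 611 of 4876, or 12.5% (11.6 to 13.5%). The mutant share was higher by 10.6 percentage points (9.66 to 11.7). All intervals here cover counting error only and not the spread between animals.

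The opposite held for cells with at least 3 Acp5 UMIs and at least 3 UMIs summed over Ctsk, Mmp9 and Dcstamp. These cells, called cells with further OC transcripts, were 603 (10.2%) in the control library and 114 (2.34%) in the mutant library. Cells with 0 UMIs of all 4 genes made up 39.7% and 40.1%, a difference of 0.348 points (-1.52 to 2.22). The share without any of the 4 transcripts was similar while the makeup of the Acp5-positive cells was not. Both are counts of the genes that chose the cells, so they describe the choice. Over all kept cells Ctsk was found in 24.7% of control and 16.3% of mutant cells. Mmp9 was found in 29.8% and 3.06%, and Dcstamp in 13.4% and 2.52%. Among all cells with at least 3 Acp5 UMIs, 13.0% were Acp5-only in the control library (111 of 851) and 66.6% in the mutant library (611 of 917), a difference of 53.6 points (49.6 to 57.3).

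A cell read more deeply has more chances to show a transcript, so each kept cell was also thinned at random to 10000 UMIs. The Acp5-only share was then 1.09% (0.837 to 1.38%) in the control library and 3.88% (3.35 to 4.46%) in the mutant library. The direction was kept, with a difference of 2.79 points in place of 10.6. Within cells that still had 3 Acp5 UMIs the Acp5-only share hardly moved, at 13.8% and 68.0%. The share of all cells with at least 3 Acp5 UMIs turned its direction, from 14.4% control and 18.8% mutant to 7.85% and 5.70% after thinning. Only 30 of the 111 control and 161 of the 611 mutant Acp5-only cells met the rule again at the lower depth.

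**Figure D1:**
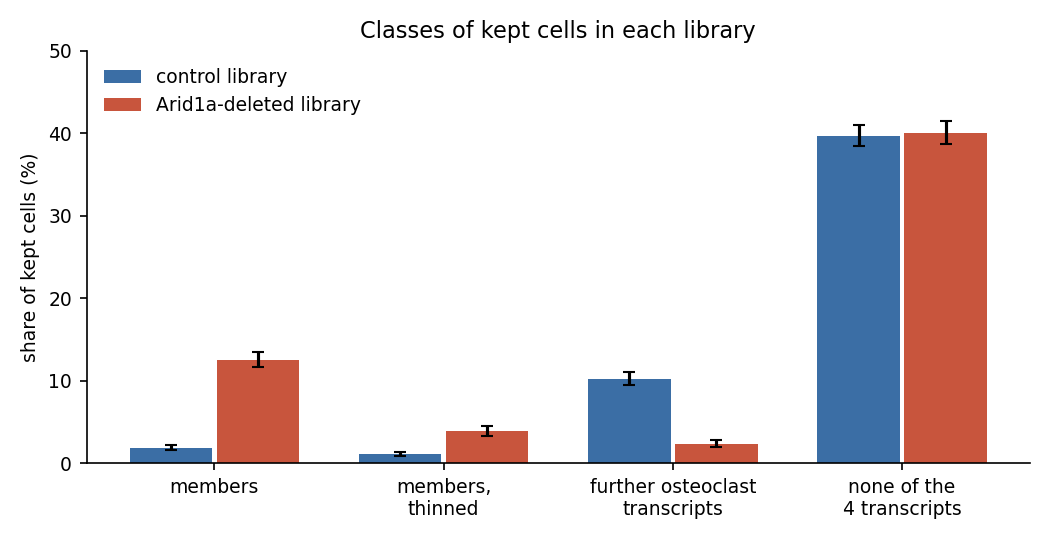
Share of kept cells (%, vertical axis) in each class for the control (blue) and the mutant, Arid1a-deleted (red) library, with exact 95% binomial intervals of counting error. Members are the Acp5-only cells, at 1.88% and 12.5% with all UMIs and at 1.09% and 3.88% after thinning to 10000 UMIs, while cells with none of the 4 transcripts sit at 39.7% and 40.1%.

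Each of the 4 genes was taken in turn as the only one present. Cells with Ctsk alone made up 14.3% of the control cells with at least 3 Ctsk UMIs (82 of 574) and 26.6% of the mutant ones (50 of 188). Mmp9 was alone in 14.4% (110 of 766) and 7.32% (3 of 41), and Dcstamp in 2.71% (6 of 221) and 15.2% (5 of 33). These shares rest on the genes of the rule alone, and a gene of a higher level is found without the others more often. As the 4 levels differed, the shares are given as a description and are not set against each other.

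Most Acp5-only cells sat near the threshold. The lowest, median and highest Acp5 counts were 3, 4 and 50 UMIs in the control library and 3, 4 and 61 UMIs in the mutant library. Exactly 3 UMIs were seen in 47 control and 239 mutant cells, and 10 or more in 10 and 52 cells. Just outside the rule lay 164 control and 472 mutant cells with 2 Acp5 UMIs and none of the other 3 transcripts. A further 86 control and 141 mutant cells had enough Acp5 but a single UMI of the other 3.

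Summed over cells, Acp5 reached 181 CPM in the control and 170 CPM in the mutant Acp5-only cells, which the rule itself sets in part. The cells with further OC transcripts held 659 and 500 CPM of Acp5. Free RNA in droplets can place transcripts in cells that do not make them, so barcodes with at least 1% of their UMIs over neutrophil markers were read as a background. None of 19 such control barcodes held Acp5, which allows a share of up to 17.6%, against 38.2% of kept control cells. Of 90 such mutant barcodes 6 held Acp5 (6.67%), against 53.1% of kept mutant cells. Their median depths of 7523 and 10000 UMIs were below those of the kept cells. As 4 of the 6 met the Acp5-only rule, this background is not free of the cells it was set against.

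The share of cells without Ctsk, Mmp9 and Dcstamp was lower at higher numbers of Acp5 UMIs in both libraries, but from different levels. It went from 64.3% of control cells without Acp5 to 31.5% at 3 Acp5 UMIs and 2.69% at 10 or more. For the mutant cells it went from 85.5% without Acp5 to 77.1% at 3 UMIs and 40.0% at 10 or more. At every step from 0 to 10 or more the mutant share was above the control share. Among the cells with the most Acp5, 10 of 372 control and 52 of 130 mutant cells were thus Acp5-only. These shares too rest on the genes of the rule alone.

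**Figure D2:**
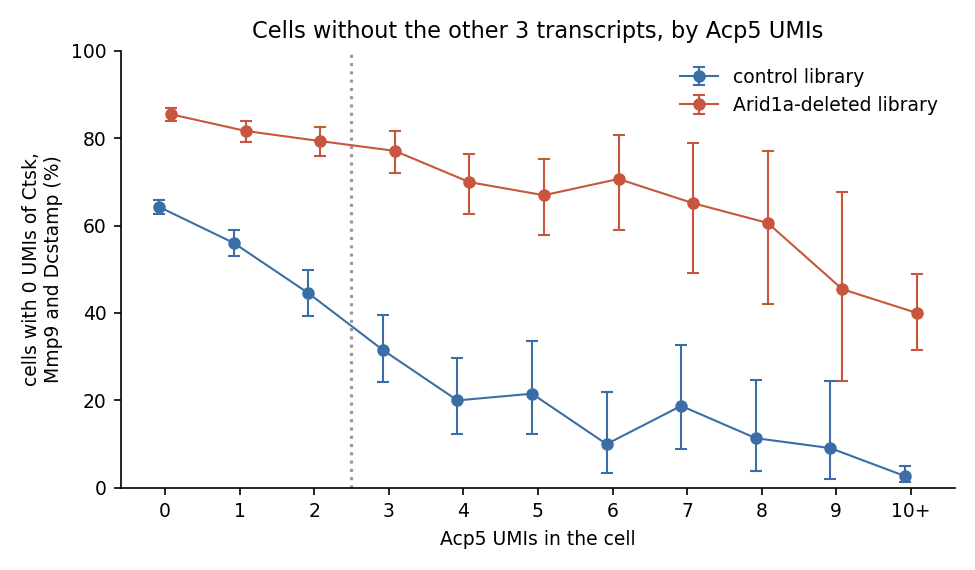
Share of kept cells with 0 UMIs of Ctsk, Mmp9 and Dcstamp (%, vertical axis) by the number of Acp5 UMIs in the cell (horizontal axis, the last point pooling 10 or more), with exact 95% binomial intervals. The dotted line marks the threshold of 3 UMIs, and the mutant library (red) lies above the control library (blue) at each step, at 77.1% against 31.5% at 3 UMIs.

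Some Acp5-only cells held OC transcripts outside the 3 genes of the rule. A set of 6 further OC genes, chosen after its values were seen, held Atp6v0d2, Ocstamp, Car2, Itgb3, Oscar and Calcr. At least 1 UMI of the set was found in 39 of 111 control Acp5-only cells (35.1%, 26.3 to 44.8%). In the mutant library it was found in 89 of 611 Acp5-only cells (14.6%, 11.9 to 17.6%). The same was found in 5.17% of control and 7.07% of mutant cells with none of the 4 transcripts, and in 85.9% and 58.8% of cells with further OC transcripts. At 10000 UMIs per cell the Acp5-only shares were 20.7% and 8.84%, against 3.12% and 4.20% in cells with none. For this set the Acp5-only cells lay between the other classes in both libraries, nearer to the cells with none, with a higher share in the control ones. As the set was chosen after its values were seen, and the upper class by Ctsk, Mmp9 and Dcstamp, this is a description only. Most of the Acp5-only cells with UMIs of this set held Atp6v0d2. Among barcodes with neutrophil markers 2 of 19 control and 2 of 90 mutant ones held such a UMI.

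Atp6v0d2, the d2 subunit of the proton pump that acidifies the resorption pit, was found in 31 of these 39 control and 54 of these 89 mutant cells. It stood at 22.8 CPM (exact Poisson interval 18.1 to 28.4) in control Acp5-only cells, against 1.91 CPM in cells with none of the 4 transcripts and 162 CPM in cells with further OC transcripts. The mutant values were 12.6 CPM (11.1 to 14.3), 5.29 CPM and 75.8 CPM. Its log2 ratio of Acp5-only cells over cells with none was 3.58 (3.14 to 4.01) in the control and 1.25 (0.98 to 1.52) in the mutant library. A single control cell held 22.8% of its UMIs, and without the cell that held the most in each library the ratios were 3.21 and 1.10. At a common depth Atp6v0d2 was detected in 14.4% of control and 5.89% of mutant Acp5-only cells, against 1.96% and 2.20% of cells with none.

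Other genes of resorption and fusion were lower in level and followed less evenly. Ocstamp, which like Dcstamp acts in fusion, was at 3.18 CPM in control and 2.89 CPM in mutant Acp5-only cells. In cells with none it was at 0.572 and 1.18 CPM, so that both ratios were above 0, at 2.47 (1.34 to 3.50) and 1.29 (0.72 to 1.86). Car2, the carbonic anhydrase that supplies protons, was at 2.31 against 0.464 CPM in the control library and at 0.577 against 0.659 CPM in the mutant library. The mutant Car2 counts therefore showed no difference beyond counting error. Slc9b2, a sodium and proton exchanger of OCs, was at 8.09 against 3.40 CPM and at 7.35 against 5.59 CPM. Mmp14, a membrane-bound metalloproteinase, had log2 ratios of 0.89 (0.04 to 1.64) and 1.46 (1.13 to 1.79). Itgb3, the beta chain of the OC vitronectin receptor, Oscar and Calcr had no UMI in the control Acp5-only cells, where 0 counts allow up to 0.867 CPM. They were at or near 0 in the cells with further OC transcripts too.

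Of the 8 counted OC transcription factors, Nfatc1 and Jdp2 were at least 1.5-fold higher than in cells with none in the control library, and none was in the mutant library. Nfatc1 stood at 54.0 CPM in control Acp5-only cells, 22.8 CPM in cells with none and 193 CPM in cells with further OC transcripts. The mutant values were 31.5, 25.7 and 108 CPM. The log2 ratios over cells with none were 1.25 (1.02 to 1.47) and 0.29 (0.15 to 0.44). Jdp2, an AP-1 family protein needed for OC differentiation, was at 137, 72.0 and 464 CPM in the control classes in the same order. Its mutant levels were 62.5, 48.0 and 286 CPM, and its ratios were 0.93 (0.79 to 1.07) and 0.38 (0.28 to 0.48). Prdm1, a repressor of genes that oppose OC formation, had ratios of 1.45 (0.97 to 1.90) and 0.66 (0.33 to 0.98), from 13.6 against 4.97 CPM and 7.09 against 4.50 CPM. Src, the kinase required for the ruffled border, had ratios of 0.96 (0.51 to 1.38) and 0.82 (0.53 to 1.11). Mitf, a factor that acts on the Acp5 promoter and stood outside this list, was at 42.5 against 25.9 CPM in the control library, a ratio of 0.71 (0.46 to 0.96). The mutant level of Mitf was 40.6 against 39.4 CPM, a ratio of 0.04 (-0.08 to 0.17).

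The receptors were close to level between the Acp5-only cells and the cells with none. Tnfrsf11a, which encodes RANK, was at 61.5 CPM in control Acp5-only cells and 61.1 CPM in cells with none, and at 87.3 CPM in both mutant classes. Csf1r, the receptor of M-CSF, had log2 ratios of -0.03 (-0.13 to 0.06) and 0.03 (-0.01 to 0.07). Trem2, which signals with Tyrobp in OC precursors, had 0.02 (-0.05 to 0.10) and 0.08 (0.04 to 0.11). The intervals of both cytokine receptors thus included 0 in both libraries. Against cells with further OC transcripts, 2 of 6 counted genes of the receptor list were at least 1.5-fold higher and 2 lower in the control library. None of 6 passed 1.5-fold in the mutant library. Over all counted genes 7.95% were higher and 6.39% lower in the control library, and 3.24% and 2.54% in the mutant library.

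**Figure D3:**
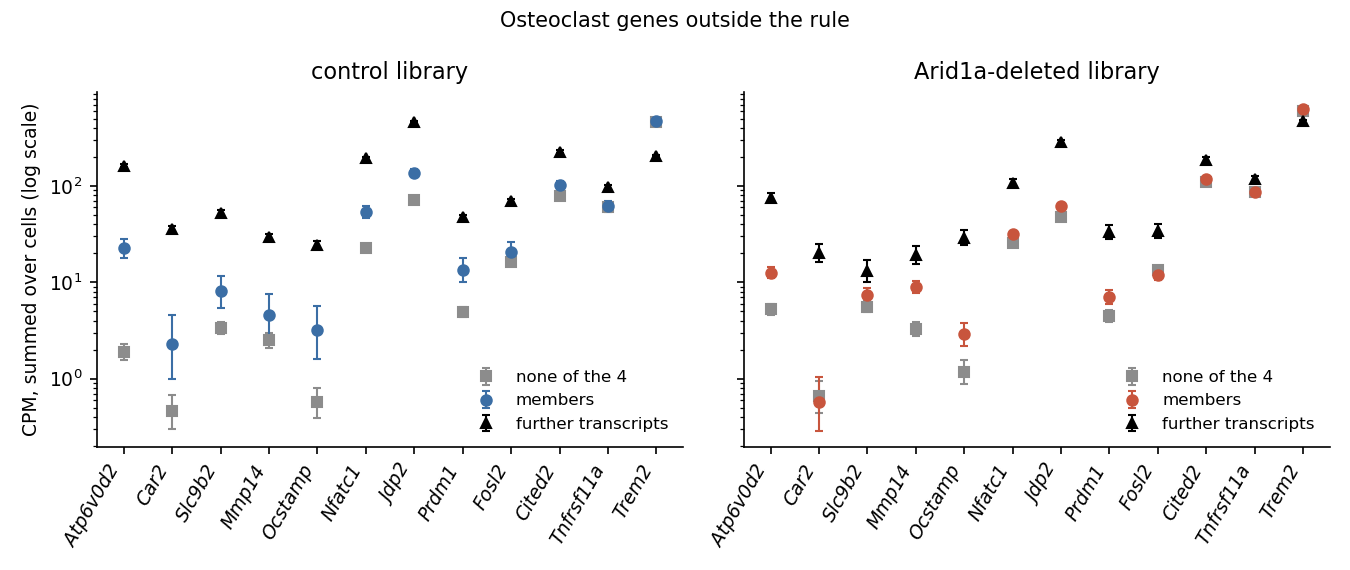
Level of 12 OC genes outside the rule (CPM summed over the cells of a class, log scale) in the control library and in the mutant library, with exact 95% Poisson intervals. Members are the Acp5-only cells, and in the control library they lie between cells with none of the 4 transcripts (grey) and cells with further OC transcripts (black) for Atp6v0d2, Nfatc1 and Jdp2, while Tnfrsf11a and Trem2 sit level with the cells with none.

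Over the 38 genes of the OC lists together (resorption, fusion, receptors and transcription factors), few passed a 1.5-fold difference from the cells with none. To be counted, a gene needed a mean level of 20 CPM over both classes, and this left out Atp6v0d2, Ocstamp, Car2, Slc9b2, Mmp14 and Prdm1 among others. In the control library 2 of 24 counted genes were at least 1.5-fold higher, Nfatc1 and Jdp2, and none was lower. The share over all 4973 counted genes was 0.804% higher and 0.523% lower. In the mutant library none of 26 passed in either direction, against 0.302% higher and 0.265% lower over 5293 genes. Of the listed genes 18 of 24 and 21 of 26 had ratios above 0, with medians of 0.06 and 0.08 against -0.03 and -0.01 over all counted genes. The count of higher genes depended on the settings. It went from 2 to 8 control and from 0 to 2 mutant genes after thinning to 10000 UMIs, and to 5 and 3 when genes were counted from 5 CPM. Cells of 15000 to 30000 UMIs gave 5 and 1, an Acp5 minimum of 5 UMIs gave 5 and 0, and a minimum of 2 gave 1 and 0.

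Against the cells with further OC transcripts the Acp5-only cells were lower in 10 of 28 counted OC genes of the control library and in 6 of 29 of the mutant library, while 5 and none were higher. Over all counted genes 6.39% were lower and 7.95% higher in the control library, and 2.54% were lower and 3.24% higher in the mutant library. The transcription factors held 5 of these lower genes of 10 counted in each library. Nfatc1 had log2 ratios of -1.84 and -1.78, Jdp2 of -1.76 and -2.20, and Atp6v0d2 of -2.83 and -2.59. Src was lower by a similar size, at -1.82 and -1.93. Akap6, an anchoring protein for kinase A (-2.32 and -2.99), and Fam102a (-2.28 and -1.81) were among the 5 lowest genes outside the rule. The class with further OC transcripts was chosen by Ctsk, Mmp9 and Dcstamp, so that OC genes lay higher there is in part what the choice gives.

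Some OC genes were higher in cells with more Acp5, and others were not. Cells with 0 UMIs of the other 3 genes were split by their Acp5 UMIs into 0, 1 to 2, 3 to 4, 5 to 9 and 10 or more. Atp6v0d2 went through 1.91, 6.30, 8.18, 28.4 and 107 CPM in the control library and through 5.29, 5.45, 10.5, 13.8 and 20.7 CPM in the mutant library. Nfatc1 went through 22.8, 24.9, 43.3, 58.5 and 114 CPM in the control cells but stayed between 25.1 and 44.9 CPM in the mutant cells. Jdp2 went from 72.0 to 270 CPM in the control cells. In the mutant cells Jdp2 lay between 45.8 and 56.8 CPM up to 9 Acp5 UMIs and reached 125 CPM only at 10 or more. Tnfrsf11a stayed between 60.1 and 64.0 CPM in the control cells and between 86.5 and 91.4 CPM in the mutant cells. Plekhm1, which acts in the trafficking of lysosomes to the ruffled border, stayed between 16.8 and 18.3 CPM in the control cells. Ckb, the brain-type creatine kinase of OCs, went the other way in the control cells, from 384 CPM without Acp5 to 294 CPM at the top step, and so did Cd47, a fusion-related surface protein, from 236 to 145 CPM, and Trem2, from 462 to 363 CPM. In the mutant cells these 3 genes were at 398, 366 and 601 CPM without Acp5 and at 394, 412 and 605 CPM at the top step. The top step rested on 10 control and 52 mutant cells.

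The cells with the most Acp5 showed how uneven this was. The control cell with 50 Acp5 UMIs also held 6 UMIs of Atp6v0d2, 10 of Nfatc1 and 23 of Jdp2. The mutant cell with 61 Acp5 UMIs held none of Atp6v0d2, 5 of Ocstamp, 8 of Nfatc1 and 41 of Jdp2. Of the 2 control cells with 20 Acp5 UMIs, 1 held 1 UMI of Atp6v0d2, 2 of Nfatc1 and 10 of Jdp2, with 14 of Lyz2, the macrophage lysozyme. The other held none of Atp6v0d2, Ocstamp and Nfatc1, 2 UMIs of Jdp2 and 164 of Lyz2.

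**Figure D4:**
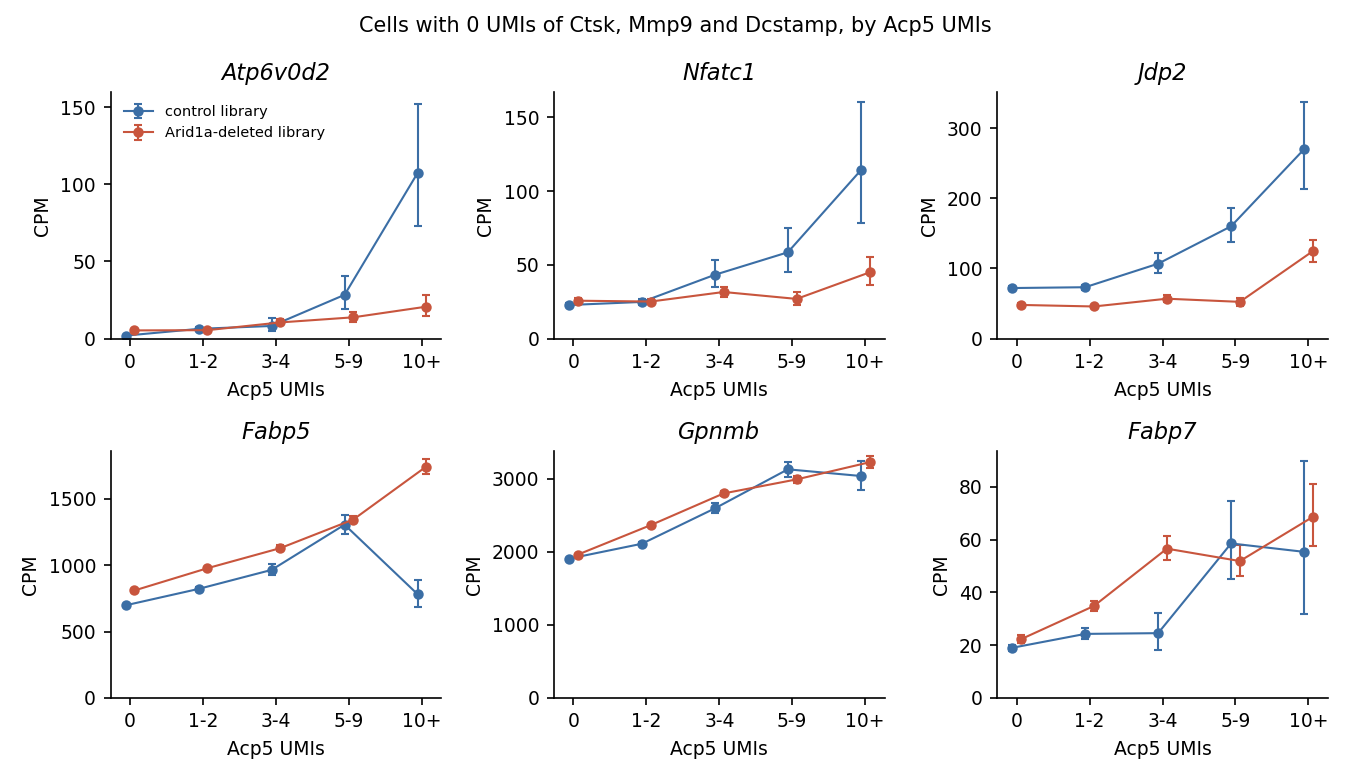
Level of 6 genes (CPM, vertical axes starting at 0) in cells with 0 UMIs of Ctsk, Mmp9 and Dcstamp, by their Acp5 UMIs, for the control (blue) and the mutant (red) library, with exact 95% Poisson intervals. Atp6v0d2 reaches 107 CPM in control and 20.7 CPM in mutant cells with 10 or more Acp5 UMIs, while Gpnmb lies higher in cells with 5 to 9 Acp5 UMIs than in cells with none in both libraries.

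Of the listed lipid-handling genes Fabp4, Fabp5 and Apoe were at least 1.5-fold higher in Acp5-only cells than in cells with none in both libraries. These were 3 of 10 counted genes in the control and 3 of 11 in the mutant library. The shares over all counted genes were 0.804% and 0.302%. No listed gene was 1.5-fold lower, and the list medians were 0.38 and 0.12. In all, 3 control and 2 mutant ratios were below 0, among them Spp1 at -0.19 and -0.06. Gpnmb, a glycoprotein of lipid-laden macrophages and of OCs, was at 2800.4 CPM in control Acp5-only cells against 1905 CPM in cells with none. The mutant values were 2905 and 1961 CPM, and the log2 ratios were 0.56 (0.53 to 0.59) and 0.57 (0.55 to 0.58). Fabp5, a fatty acid binding protein, was at 1058 against 698 CPM and at 1263 against 810.0 CPM. Its ratios were 0.60 (0.55 to 0.65) and 0.64 (0.62 to 0.66). With the classes drawn again on thinned counts both stayed above 0, at 0.21 and 0.84. Apoe, the lipid carrier of macrophages, had ratios of 0.59 (0.45 to 0.72) and 0.64 (0.62 to 0.67). In the control library 1 cell held 26.7% of the Apoe UMIs, and without it the control ratio was 0.15 (-0.01 to 0.31). Without the cell that held the most of each gene, the control ratios of Fabp4 and Fabp5 were 0.55 and 0.52. None of these 3 control ratios was then past 1.5-fold, while the 3 mutant ratios still were. Against cells with further OC transcripts, 8 of 10 counted control genes of the list were at least 1.5-fold higher and 1 lower. In the mutant library 1 of 12 was higher and 1 lower, with a median of 0.13. Over all counted genes 7.95% were higher and 6.39% lower in the control library, and 3.24% and 2.54% in the mutant library. In this comparison Fabp4 had 1.75 and 0.08, Fabp5 0.62 and 0.16, and Apoe 1.16 and 1.02.

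Fabp7, which was outside this list, and Fabp4 were expressed at lower levels. Fabp7 was at 37.8 against 19.0 CPM in the control and at 56.3 against 22.2 CPM in the mutant library, ratios of 1.00 and 1.34. Fabp4 had ratios over cells with none of 0.89 (0.57 to 1.19) and 0.89 (0.73 to 1.06). The control ratios turned below 0 after thinning, to -0.53 for Fabp7 and -1.08 for Fabp4, and Fabp4 was at -0.10 within control cells of 15000 to 30000 UMIs. A single control cell held 26.0% of the Fabp7 and 21.6% of the Fabp4 UMIs. The mutant ratios of both genes were above 0 in each alternative.

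Beyond the lists, the 10 highest genes in both libraries held secreted and membrane proteins. Pgf, placental growth factor, was at 66.4 against 26.2 CPM in the control and 70.6 against 37.0 CPM in the mutant library, ratios of 1.34 (1.14 to 1.55) and 0.93 (0.83 to 1.04). Ccl6, a chemokine of macrophages, was at 204 against 62.8 CPM and 86.6 against 51.4 CPM. Il1rn, which encodes the antagonist of the interleukin-1 receptor, had ratios of 1.00 (0.82 to 1.18) and 0.59 (0.52 to 0.66). Sdc1, a cell surface proteoglycan, had ratios of 0.73 (0.60 to 0.86) and 0.86 (0.75 to 0.97). Cav1, the main protein of caveolae, had 0.61 and 0.68, and its control ratio was -0.01 after thinning. Bcl2a1b, an anti-apoptotic member of the Bcl2 family, had 2.29 and 0.78, but it has near-identical copies between which reads may be split. Mmp12, macrophage elastase, lay outside this rule and was named after its values were seen. It was at 301 against 71.9 CPM in the control library, a ratio of 2.07, or 1.38 without the 1 cell that held 38.3% of its UMIs. The mutant level of Mmp12 was 644 against 465 CPM, a ratio of 0.47. Against cells with further OC transcripts, Pgf was lower in Acp5-only cells, with ratios of -0.45 and -1.56. Il1rn had 0.25 and -0.66 against that class, and Sdc1 0.19 and -1.39. Ccl6 had 2.84 and 0.60, Cav1 1.51 and -0.17, and Bcl2a1b 0.82 and 0.05.

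The lowest genes in both libraries held, apart from the neutrophil genes S100a8 and S100a9, several genes of mitosis. Ccnb2, a mitotic cyclin, was at 24.3 against 51.6 CPM in the control and 45.1 against 66.5 CPM in the mutant library, ratios of -1.09 (-1.42 to -0.77) and -0.56 (-0.67 to -0.45). Cenpa, the histone of centromeres, had -0.73 and -0.48, Cdkn3 -0.83 and -0.48, and Knstrn, a kinetochore protein, -0.58 and -0.48. Tuba1a, a tubulin, had -0.55 and -0.51. Lsp1, a leukocyte actin-binding protein, had -0.65 in both, the chemokine Ccl7 -0.68 and -0.43, and Man1a, a mannosidase, -0.72 and -0.43. In the whole G2/M list 15 of 19 counted genes of the control and 20 of 20 of the mutant library had ratios below 0, with medians of -0.28 and -0.29. Only 4 control and no mutant genes of this list passed 1.5-fold. Over all counted genes 0.523% and 0.265% were 1.5-fold lower. In cells with further OC transcripts Ccnb2 had a ratio over cells with none of -0.60 in both libraries. The medians of the G2/M list in that comparison were -0.04 and -0.07.

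Genes of DNA replication went the other way in Acp5-only cells. In the G1/S list 15 of 16 counted genes had ratios above 0 in each library, with medians of 0.22 and 0.08, and none passed 1.5-fold. In cells with further OC transcripts 12 and 11 of 16 ratios over cells with none were above 0, with medians of 0.16 and 0.08. Thinned to 10000 UMIs, 77.5% of control Acp5-only cells had at least 10 UMIs over the G1/S list against 59.9% of cells with none, and 63.3% against 54.7% in the mutant library. Cells with further OC transcripts had 72.8% and 60.5%. For the G2/M list the thinned shares were 50.5% against 54.7% in the control and 40.4% against 47.3% in the mutant library. With all UMIs the G2/M shares were 73.9% against 73.7% and 64.8% against 62.5%, the other direction, as the Acp5-only cells had a median of 28199 and 27161 UMIs against 22138 and 20802 in the cells with none. Summed over the cells, and scaled to the total, the G2/M list stood at 1463 against 1792 CPM and at 1642 against 1956 CPM.

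**Figure D5:**
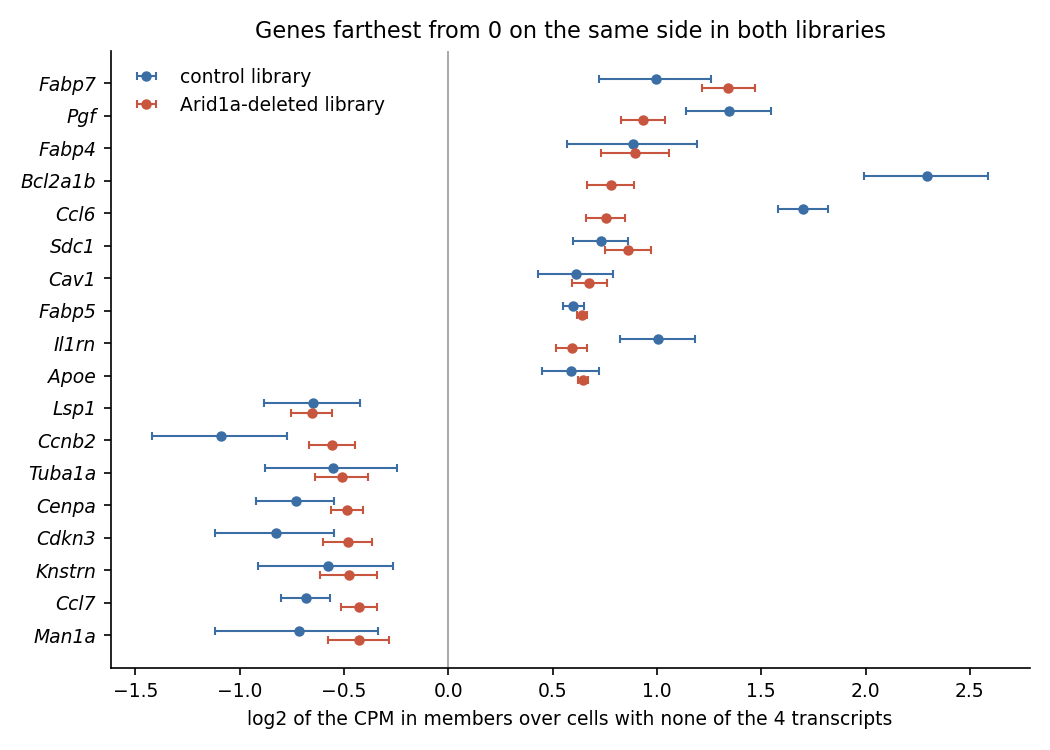
Log2 ratio of the CPM of Acp5-only cells (members) over cells with none of the 4 transcripts, for the genes farthest from 0 on the same side in both libraries, with exact 95% intervals of counting error. S100a8 and S100a9 are left out for scale. The control values of Fabp7, Fabp4 and Cav1 were below 0 when cells were thinned to 10000 UMIs and the classes drawn again.

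Genes of monocyte and macrophage identity in the Acp5-only cells were mostly near the level of the cells with none. Lyz2 was at 12811 CPM against 12360 CPM in the control and 5612 against 5526 CPM in the mutant library. Adgre1, which encodes F4/80, was at 163 against 168 CPM and at 539 against 546 CPM. The complement genes were lower in the control Acp5-only cells, with C1qa at 166 against 267 CPM, a ratio of -0.69 (-0.81 to -0.57). The mutant ratio of C1qa was -0.15 (-0.22 to -0.08), and it was 0.08 within cells of 15000 to 30000 UMIs. Ly6c2, a marker of inflammatory monocytes, had no UMI in the control Acp5-only cells and was at 10.2 against 40.9 CPM in the mutant library. In this list 2 of 12 counted control and 2 of 14 mutant genes were at least 1.5-fold lower than in cells with none. Over all counted genes 0.523% and 0.265% were lower.

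These macrophage genes were higher in the Acp5-only cells than in the cells with further OC transcripts. All 9 counted genes of the control list and 8 of 11 of the mutant list were at least 1.5-fold higher in the Acp5-only cells. The medians were 1.76 and 0.83. Over all counted genes 7.95% and 3.24% were higher. Lyz2 had log2 ratios of 1.99 and 0.61, and Adgre1 of 1.55 and 0.77. The 5 highest genes in both libraries included C1qa at 1.89 and 2.13, Ctsc, a lysosomal dipeptidase, at 1.72 and 1.12, and Aif1, a macrophage actin-binding protein, at 1.54 and 1.12. Slpi, a protease inhibitor, was at 1.36 and 1.20, with 26.3% and 28.0% of its UMIs in 1 cell of each library. Irf8, a factor that holds back OC differentiation, was higher as well, at 2.09 and 0.88. Id2, an inhibitor of the same process, was also higher than in cells with none, at 0.56 and 0.39. Its control ratio was -0.08 after thinning. Of 4 counted repressors of OC differentiation, 1 control ratio over cells with none was above 0 and 3 were below, with a median of -0.25. In the mutant library 3 were above 0 and 1 below, with a median of 0.10.

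Several lists outside the OC genes held no gene past 1.5-fold against the cells with none. Of the lysosomal genes none of 34 counted control and 35 counted mutant genes passed 1.5-fold in either direction. Of the interferon-stimulated genes none of 23 and 37 passed, with medians of -0.03 and 0.03. The iron-handling, BAF, ribosomal protein and mitochondrial lists held no gene past 1.5-fold in either library, and neither did the other acid phosphatases Acp1 and Acp2. Of the inflammatory list 3 of 11 genes were higher and 2 lower in the control library, and 1 of 11 was higher in the mutant library. Over all counted genes 0.804% were higher and 0.523% lower in the control library, and 0.302% higher in the mutant library. Ccl5, 1 of the 3 higher control genes, had 63.3% of its control UMIs in 1 cell and a ratio of 0.25 (-0.02 to 0.52) without it. The MHC class II list, of which Cd74 alone was counted, summed to 93.6 against 44.3 CPM in the control library, a ratio of 1.08 (0.91 to 1.25). A single control cell held 66.2% of the Cd74 UMIs, and the control ratio of Cd74 was -0.06 (-0.42 to 0.28) without it. In the mutant library the list summed to 62.1 against 153 CPM, a ratio of -1.30 (-1.39 to -1.21).

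Markers of other cell types were counted beside these results. In the control Acp5-only cells 7 of 10 neutrophil markers were at 0 and their summed level was 19.1 CPM, against 206 CPM in cells with none and 6.85 CPM in cells with further OC transcripts. Of the mutant markers 1 of 10 was at 0 and the sums were 559, 3323 and 43.1 CPM. S100a8, a neutrophil gene, had ratios of Acp5-only cells over cells with none of -2.22 and -2.49, and the control ratio was 0.33 once barcodes with at least 1% neutrophil or stromal UMIs were left out. These barcodes numbered 0 control and 4 mutant Acp5-only cells, against 5 and 37 cells with none. Single cells reached from 0 to 589 CPM in the control and from 0 to 108749 CPM in the mutant Acp5-only cells, with medians of 0. Stromal markers summed to 0.578 and 0.105 CPM in the Acp5-only cells with 8 and 7 of 9 at 0, lymphoid markers to 0 and 2.20 CPM with 7 and 4 of 7 at 0, and erythroid and mast cell markers were all at 0.

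Where the Acp5-only cells lay among the other cells was read from the 30 nearest neighbours of each cell, found without the 4 genes of the rule. In the control library 3.57% of their neighbours were Acp5-only cells, against a share of 1.88% in the library. A mean of 35.3% were cells with none, against 39.7%, and 9.94% were cells with further OC transcripts, against 10.2%. For comparison, control cells with further OC transcripts had 55.7% of their neighbours in their own class. In the mutant library 16.3% of the neighbours were Acp5-only cells, against a share of 12.5%, 32.4% were cells with none, against 40.1%, and 2.04% were cells with further OC transcripts, against 2.34%. The mutant cells with further OC transcripts had 18.7% of their neighbours in their own class and 17.2% among the Acp5-only cells. The neighbours of the Acp5-only cells thus held somewhat more of their own class and fewer cells with none than the library shares. Cells with further OC transcripts were near their library share among these neighbours. Cells with none had fewer neighbours in that class, at 1.52% for control and 0.748% for mutant cells, against 9.94% and 2.04% for Acp5-only cells. By this measure the Acp5-only cells lay nearer to the cells with further OC transcripts than the cells with none did.

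Between the libraries, more genes of the Acp5-only cells were past 1.5-fold than between the Acp5-only cells and the cells with none of the same library. Of 5141 counted genes 14.0% were at least 1.5-fold higher and 5.64% lower in the mutant than in the control Acp5-only cells. Arid1a itself was at 40.7 CPM in control and 19.3 CPM in mutant Acp5-only cells, a log2 ratio of -1.08, against -1.26 between the libraries' cells with none. As only the 3′ ends of transcripts are read, the recombined allele can still contribute UMIs if its transcript keeps that end.

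Interferon-stimulated genes differed in a common direction. Of 35 counted genes 32 were at least 1.5-fold higher in the mutant Acp5-only cells, against 14.0% over all counted genes. Their median was 1.53, against 0.05 over all counted genes. The cells with none gave 35 of 35 and a median of 1.57, so the difference was of like size there. Irf7, the factor that amplifies interferon responses, was at 91.9 CPM in control and 618 CPM in mutant Acp5-only cells, a ratio of 2.75. Zbp1, a sensor of nucleic acids, was at 27.1 and 192 CPM, a ratio of 2.83. The highest ratios belonged to S100a9 at 8.51, from 0.578 CPM, and to the Ly6 and MHC-related genes Ly6i at 5.32, H2-Q7 at 4.35 and Ly6a at 4.04, with Ms4a4c at 4.77. For S100a9, 41.5% of the mutant UMIs came from 1 cell.

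Lysosomal genes were higher in 16 of 35 counted cases in the mutant Acp5-only cells, with a median of 0.56, and none was 1.5-fold lower. Over all counted genes of these cells 14.0% were higher and 5.64% lower. The cells with none gave 14 of 35 and 0.52. Apoe was at 135 CPM in control and 1248 CPM in mutant Acp5-only cells, a ratio of 3.20 against 3.15 in the cells with none. Gpnmb differed by 0.05 and was at -0.03 and -0.05 with an Acp5 minimum of 5 UMIs and with mitochondrial and ribosomal protein genes left out. The lowest ratios were those of Emp2, an epithelial membrane protein, at -4.62, Uchl1, a ubiquitin hydrolase, at -3.22, Cd207, a lectin, at -2.95, Dennd5b at -2.78 and Spp1, osteopontin, at -2.49. Spp1 went from 1458 to 259 CPM, and its ratio between the cells with none was -2.63.

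The OC genes of the Acp5-only cells did not move together between the libraries. Of 25 counted genes 7 were at least 1.5-fold higher and 2 lower in the mutant Acp5-only cells, with a median of 0.35. Over all counted genes 14.0% were higher and 5.64% lower. The 2 lower OC genes were Nfatc1 at -0.78 and Jdp2 at -1.14. In the cells with none the same genes had 0.17 and -0.59. Atp6v0d2, under the level for counting, had -0.86 in the Acp5-only cells and 1.47 in the cells with none. Whether the Acp5-only cells differed between the libraries more than the cells with none did was not tested, as there was 1 library of each.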

How the data were processed

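Raw UMI counts per gene and barcode were deposited for both libraries, which the authors made from a 10x Genomics 3′ kit; the matrix header names Cell Ranger 6.1.0. The labels name GRCm39 as the build, and whether these counts precede aggregation was not given in the sources used here. Of 32544 listed genes 31977 identifiers matched the annotation.

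UMIs were summed per class and library and given as CPM with 95% exact Poisson intervals, and log2 ratios had exact conditional intervals. Shares had Clopper-Pearson intervals, and their differences were combined by square-and-add. A limit for 0 counts is 3 counts of the class total. Ratios counted as past 1.5-fold needed a mean of at least 20 CPM over the classes compared, and genes of the rule were left out. Named genes were the listed genes and those with the 10 highest and 10 lowest ratios over cells with none, 5 and 5 over cells with further OC transcripts and 5 and 5 between libraries. For the first and second of these, genes needed the same sign in both libraries and were ranked by the value nearer to 0. Doublets were scored against 2 simulated doublets per barcode among 50 neighbours, and the highest scores, 0.8% per 1000 barcodes, were removed in an alternative only. Neighbours used 30 principal components of 2000 variable genes. Alternatives changed depth, the Acp5 minimum, doublets, other cell types, the CPM total, the weight of cells, the filter on levels and the reading of the rule. The cells, genes and lists were chosen with earlier results of these data known, and values without the cell that held the most UMIs of a gene were added after the data were seen. Some genes of the lists and of the named-gene rule are not reported here. Scripts were tested on simulated data and ran in Python 3.11.15 with numpy 2.4.6, scipy 1.17.1, pandas 2.3.3, scikit-learn 1.9.0 and matplotlib 3.10.9.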

Additional observations from a re-analysis of the deposited data

Results flagged for a closer look

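Cd74, the invariant chain of MHC class II, was the only 1 of 4753 genes counted in both libraries that was at least 1.5-fold apart in opposite directions between the libraries. Its log2 ratio of Acp5-only cells over cells with none of the 4 transcripts was 1.5 for the control and -1.30 for the mutant cells, a difference that was not tested. A single control cell held 143 of its UMIs, or 66.2%, and without it the control ratio was -0.06 (-0.42 to 0.28). The mutant ratio without the cell that held the most was -1.44 (-1.58 to -1.30). With an Acp5 minimum of 5 UMIs the control ratio was -0.08.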

How the results depend on the processing

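Of 133 alternative values of the shares and counts, 84 stayed within the set bounds and 49 moved. Only the difference of shares could be marked as turning direction, and it did not turn. Thinning to 10000 UMIs gave Acp5-only shares of 1.09% and 3.88%, a difference of 2.79 points, 8 and 2 OC genes higher than in cells with none, and 12 mutant OC genes lower than in cells with further OC transcripts. Over all genes it gave 322 higher and 447 lower in the control, 73 and 102 in the mutant cells, and 1114 and 836 between libraries, from classes of 64 and 189 Acp5-only cells. Cells of 15000 to 30000 UMIs gave a mutant share of 11.5%, 5 and 1 OC genes higher, 10 mutant OC genes lower than in cells with further OC transcripts, 119 and 116 genes for control cells, 27 and 34 for mutant cells, and 477 lower between libraries. An Acp5 minimum of 2 gave shares of 4.66% and 22.2%, a difference of 17.5 points, 1 control OC gene higher, 14 and 2 genes in the control cells and 8 mutant genes higher. A minimum of 5 gave 0.78% and 5%, a difference of 4.22 points, 5 control OC genes higher, 117 and 123 genes for control cells and 27 and 22 for mutant cells. Without barcodes of neutrophil or stromal markers 5 mutant genes were lower, and with each cell weighted alike 22. Without mitochondrial and ribosomal protein genes 471 were lower between libraries. Counting from 5 CPM gave 5 and 3 OC genes higher, 10 mutant OC genes lower than in cells with further OC transcripts, 140 and 195 genes for control cells, 42 and 42 for mutant cells, and 1379 and 576 between libraries. Requiring each of the 3 transcripts gave 14 mutant OC genes lower. The cause of these shifts was not tested.

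Of 1404 alternative values of 152 named log2 ratios, 900 stayed, 492 moved and 12 were marked as a change of sign. That mark was given only where the main interval did not include 0. Control ratios over cells with none, with the classes drawn again on thinned counts, were -0.53 for Fabp7 and -1.08 for Fabp4. They were -0.01 for Cav1, -0.27 for Lgals3 and -0.08 for Id2. Cells of 15000 to 30000 UMIs gave -0.10 for control Fabp4 and 0.08 for mutant C1qa. Cited2 was at -0.02 in the control library with an Acp5 minimum of 2, and with 5 control Cd74 was at -0.08 and Gpnmb between libraries at -0.03. Gpnmb was at -0.05 without mitochondrial and ribosomal protein genes, and control S100a8 at 0.33 without neutrophil or stromal barcodes. No paired analysis was possible because there was 1 library per group. With 111 control Acp5-only cells, genes near 20 CPM rest on few UMIs, and differences within the intervals were not detectable at this depth.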
